A study of Mus musculus with 16 samples.

Results

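Carbonic anhydrases are the enzymes that turn carbon dioxide and water into bicarbonate and a proton. The genes Car1, Car2, Car4, Car8, Car12 and Car13 were taken from the counts by symbol. They are 6 of the 16 genes of the family and of the 21442 genes in the counts. Expression was measured by total RNA sequencing in live epithelial cells of the mouse distal colon, taken at an age of 6 to 8 weeks and sorted by flow cytometry. Both genotypes carried the reporter transgene RedMUC298trTg, which puts mCherry in goblet cells. The strain labelled RedMUC298trTg is called WT here, and SpdefKO_RedMUC298trTg, the reporter on a background labelled as lacking the transcription factor Spdef, is called SpdefKO. In each genotype mCherry-positive cells were collected as goblet cells (GC), the mucus-secreting cells of the gut. Cells without mCherry were collected as the other epithelial cells (EC), which the labels call colonocytes.

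Each group held 4 libraries, named here by number: 10, 12, 14 and 17 for WT_EC, 4, 6, 8 and 20 for SpdefKO_EC, 9, 11, 13 and 18 for WT_GC, and 3, 5, 7 and 19 for SpdefKO_GC. Values for single libraries are listed in this order. Whether each library stands for its own mouse is not said in the labels, and the p-values therefore refer to the spread among libraries, which may be technical. RNA was purified on MinElute columns for GC and on Mini columns for EC, so cell type and column cannot be told apart. In bulk samples, fewer cells of a type and less RNA per cell cannot be told apart either.

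In the colon, bicarbonate and protons made by carbonic anhydrases feed the exchangers that take up sodium chloride and secrete bicarbonate. Surface colonocytes are a classical site of high carbonic anhydrase activity, and goblet cells need bicarbonate for mucin to unfold after release. Car1, Car2 and Car13 are cytosolic enzymes, with Car2 the fast form and Car1 a slower form known from colon and red blood cells. Car4 is held at the outer face of the apical membrane by a lipid anchor, and Car12 spans the membrane with its catalytic domain outside the cell. Car8 keeps the carbonic anhydrase fold but is known as catalytically inactive, and it binds the inositol trisphosphate receptor.

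The catalytic site that the active enzymes share can be read in the coding sequence around the zinc. They hold the catalytic zinc with 3 histidines. The stretches below, shown for the 5 active enzymes, run from the 5 codons before the first ligand position to the codons just after the third, as found in the principal transcripts of GENCODE M21 on GRCm38, with the 3 ligand codons in capitals.

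Car1: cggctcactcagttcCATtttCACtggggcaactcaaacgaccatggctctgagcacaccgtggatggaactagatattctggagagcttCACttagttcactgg
Car2: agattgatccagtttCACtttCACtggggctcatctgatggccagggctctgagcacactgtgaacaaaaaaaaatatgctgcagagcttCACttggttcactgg
Car13: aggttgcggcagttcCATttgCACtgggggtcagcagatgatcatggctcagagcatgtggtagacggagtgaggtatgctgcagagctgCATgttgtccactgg
Car4: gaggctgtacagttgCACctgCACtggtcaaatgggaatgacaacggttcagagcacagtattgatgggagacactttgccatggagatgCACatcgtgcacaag
Car12: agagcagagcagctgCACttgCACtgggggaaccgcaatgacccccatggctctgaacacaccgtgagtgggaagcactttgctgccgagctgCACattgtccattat

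In all 5 genes each codon in capitals encodes histidine, while the letters between them differ from gene to gene. Car1 and Car13 were the closest proteins (64.0% identical residues in a pairwise alignment), and Car4 and Car8 the most distant (30.1%). Car13, Car1 and Car2 lie together on chromosome 3 (GRCm38), at 14641727–14663002 on the plus strand, 14766216–14808368 on the minus strand and 14886273–14900770 on the plus strand. With Car3 between Car1 and Car2, this cluster of 4 genes spans 259 kb. Car4 lies on chromosome 11 at 84957786–84966044 (plus), Car8 on chromosome 4 at 8143362–8239041 (minus) and Car12 on chromosome 9 at 66713686–66766845 (plus).

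Libraries held 10085637–17111987 counts on genes, and levels are given as CPM, the counts per mega-count of this total. All 6 genes passed the filter on low counts and were among 12915 tested with edgeR. The sorts matched their markers: the summed level of 11 goblet cell markers was 51264–67902 CPM over the GC libraries and 513–783 CPM over the EC libraries. Spdef itself was not reduced in goblet cells labelled SpdefKO. Its mean was 306 ± 19.03 CPM (SD, n = 4) in the WT_GC libraries, with a range of 285–323, against 385 ± 69.6 CPM for SpdefKO_GC, with a range of 300.4–470.4. The edgeR log2 difference of 0.33 ± 0.14 (SE) did not pass (adjusted p = 0.116). Over the EC libraries its means were 2.65 ± 0.848 CPM (WT) and 2.04 ± 0.926 CPM (SpdefKO), with a log2 difference of -0.28 ± 0.28 (adjusted p = 0.559). The sources used here do not describe the deleted part of the gene, so SpdefKO is used below as the label of the libraries.

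Between goblet cells and the other epithelium of WT mice, Car1, Car2, Car4, Car12 and Car13 were lower in goblet cells and Car8 was higher. All 6 passed the test at an adjusted p under 0.05, and in all 6 the libraries of the groups did not overlap. The same threshold was passed by 61.2% of all genes tested, 31.0% as higher and 30.2% as lower, and 60.7% did not overlap. The median log2 difference over the 6 genes was -1.69, and over all genes tested 0.05. The differences in level ran from a modest reduction of Car2 to a near loss of Car4.

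**Figure D1:**
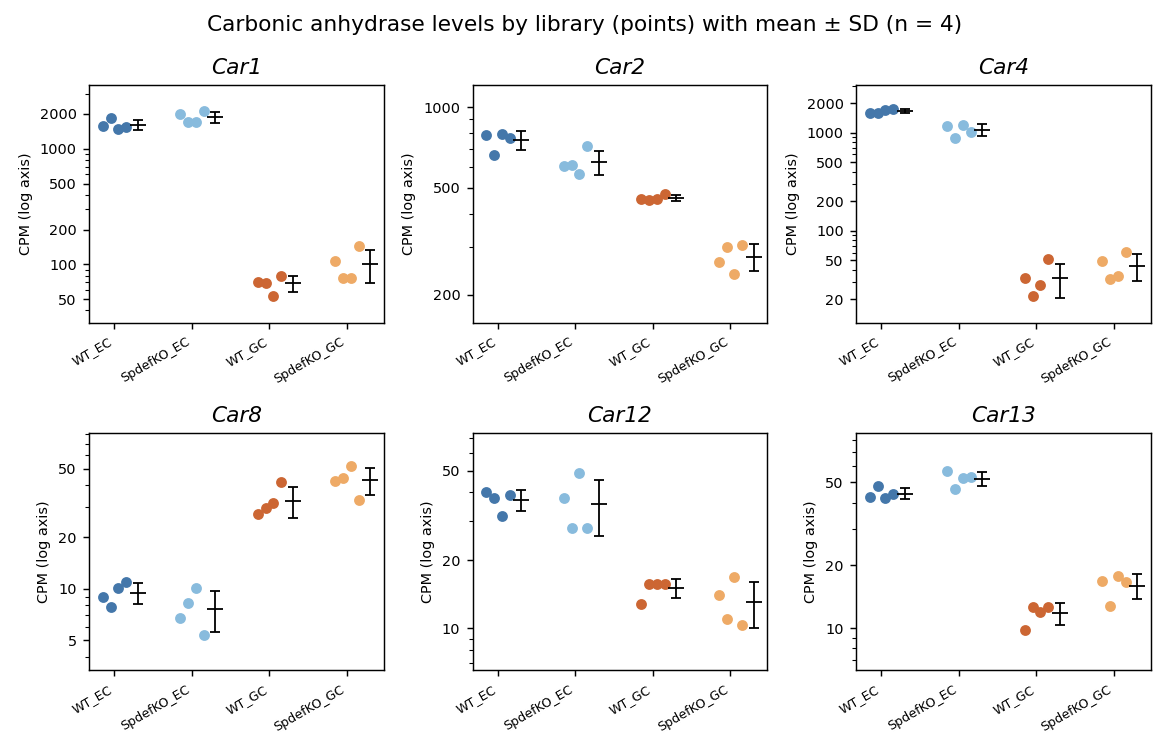
CPM (log axis) of the 6 carbonic anhydrases in every library, grouped as WT_EC, SpdefKO_EC, WT_GC and SpdefKO_GC. Points are libraries and bars the mean ± SD (n = 4). In Car8 alone the GC libraries sit above the EC libraries, and the GC libraries of Car2 separate by genotype.

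Among the cytosolic enzymes, Car1 was at 1574, 1832, 1475 and 1548 CPM in the WT_EC libraries and at 71.0, 68.6, 53.8 and 79.9 CPM in WT_GC. Every WT_GC library was thus far below every WT_EC library. Car1 fell by 4.64 ± 0.21 on the log2 scale (adjusted p = 6.07e-12), and its mean in WT_GC was 4.25% of that in WT_EC. Car2 was at 788, 664, 793 and 767 CPM in WT_EC and at 456, 452, 454 and 475 CPM in WT_GC. Its 4 WT_GC libraries were tightly grouped and below all WT_EC libraries. The Car2 difference was the smallest of the 6 (log2 -0.79 ± 0.09, adjusted p = 3.23e-07), and goblet cells kept 61.0% of the EC level. Car13 was at 42.5, 48.1, 42.0 and 43.9 CPM in WT_EC and at 9.78, 12.7, 11.9 and 12.7 CPM in WT_GC (log2 -1.99 ± 0.11, adjusted p = 7.2e-12).

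Of the membrane-bound enzymes, Car4 showed the steepest difference. It was at 1585, 1574, 1711 and 1749 CPM in WT_EC and at 32.7, 21.6, 28.0 and 51.1 CPM in WT_GC. WT_GC 18 was the highest of the goblet cell libraries, and still far below the EC range. Car4 fell by 5.72 ± 0.27 on the log2 scale (adjusted p = 4.98e-11). Car12, the transmembrane enzyme, was at 40.2, 37.7, 31.4 and 38.8 CPM in WT_EC and at 12.8, 15.8, 15.8 and 15.8 CPM in WT_GC. The groups did not overlap, and the log2 difference was -1.38 ± 0.17 (adjusted p = 1.95e-06).

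Car8, the member known as inactive, went the other way. It was at 9.003, 7.84, 10.04 and 10.97 CPM in WT_EC and at 27.1, 29.3, 31.4 and 41.8 CPM in WT_GC. Every goblet cell library was above every EC library. Car8 rose by a log2 value of 1.69 ± 0.18 (adjusted p = 1.69e-07), to 342% of the EC mean. On the CPM scale it remained a gene of modest level in goblet cells.

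In the SpdefKO genotype the same 6 genes differed between GC and EC in the same directions, beside 56.4% of all genes tested (28.0% higher, 28.4% lower). The median log2 difference was -1.71, and over all genes tested 0.03. In all 6 the libraries did not overlap, as in 50.7% of all genes. Car8 was higher (log2 2.34 ± 0.18, adjusted p = 3.06e-09). The others were lower, with log2 differences of -4.34 ± 0.20 for Car1, -1.29 ± 0.09 for Car2, -4.72 ± 0.26 for Car4, -1.58 ± 0.18 for Car12 and -1.83 ± 0.10 for Car13. Their adjusted p-values were 1.43e-11, 4.69e-10, 3.46e-10, 4.78e-07 and 1.92e-11. The calls and directions of the 6 genes held under all 24 alternative settings in both genotypes.

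Because EC and goblet cells are separated by sorting, the levels in GC were set beside those of markers of absorptive colonocytes. Of 13 such genes 12 were tested, and all 12 were lower in GC in both genotypes. Over all genes tested, 30.2% were lower in GC in WT and 28.4% in SpdefKO. The 13 genes summed to 10985–12478 CPM over the WT_EC libraries and 1309–1563 CPM over WT_GC. Among 12 of them with at least 5 CPM in WT_EC, the mean in WT_GC ran from 1.68% of the EC mean for Slc9a3, the apical sodium/proton exchanger, to 23.3% for Fabp2, a fatty acid binding protein. Car1 (4.25%) and Car4 (2.02%) lay inside this range, close to Aqp8 (2.03%) and Ceacam20 (2.60%). Car13 (26.7%), Car12 (40.6%) and Car2 (61.0%) lay above it. In SpdefKO mice the range was 3.35–32.4%, with Car4 at 4.13%, Car1 at 5.38% and Car13 at 30.6% inside it and Car12 at 36.7% and Car2 at 44.6% above it. The part of colonocyte RNA in the GC levels of Car1, Car4 and Car13 was not tested.

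**Figure D2:**
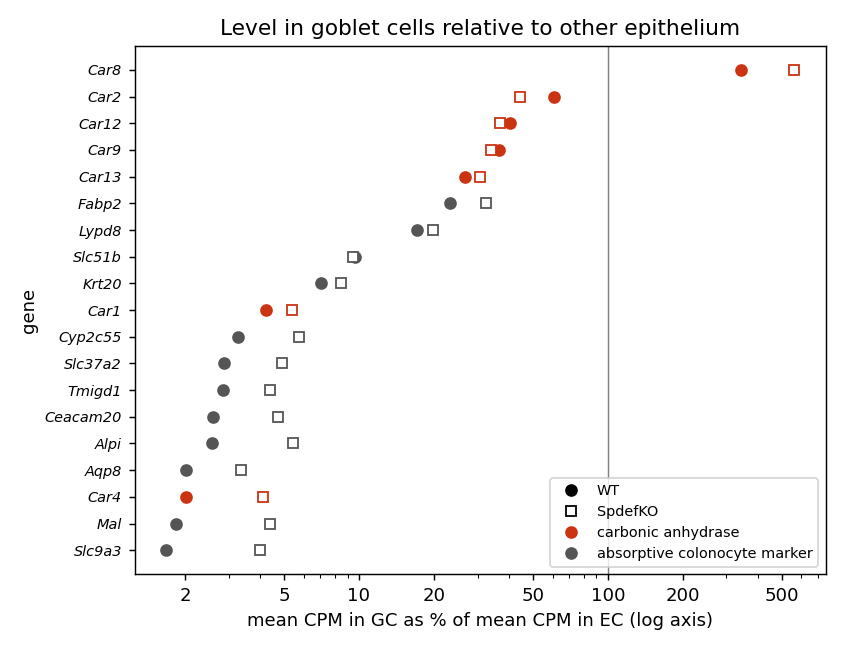
Mean CPM in GC as a percentage of mean CPM in EC (log axis) for 7 carbonic anhydrases and 12 absorptive colonocyte markers. Circles are WT and squares SpdefKO, with Car8 to the right of the line at 100% and Car4 among the markers.

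Car1 and Car2 are also enzymes of red blood cells, so erythroid markers were read in the same libraries. Of 12 such markers 5 were in the table, and the globin genes were not analysed here. Those 5 summed to 7.06–12.7 CPM over the EC libraries of both genotypes and to 0.464–2.03 CPM over the GC libraries. Among them Alas2, Slc4a1 and Rhag, genes of the red cell lineage, had group means of at most 0.106 CPM, and Klf1 of at most 0.431 CPM. Their part in the Car1 and Car2 levels was not tested.

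To compare genes with each other, CPM was divided by the length of the principal transcript in kb. On this scale Car1 (1362 ± 132 CPM per kb) and Car4 (1318 ± 70.4) led the family in WT_EC, and their library ranges overlapped. Car2 followed at 421 ± 33.8 CPM per kb. Then came Car9 at 32.5 ± 2.38, Car13 at 19.2 ± 1.20, Car12 at 9.97 ± 1.04 and Car8 at 2.46 ± 0.350 CPM per kb. The ranges of these lower neighbours did not overlap. In WT_GC the order was Car2 (257 ± 5.92 CPM per kb), Car1 (57.9 ± 9.20), Car4 (26.6 ± 10.1), Car9 (11.9 ± 0.697), Car8 (8.41 ± 1.68), Car13 (5.12 ± 0.596) and Car12 (4.05 ± 0.395). Over libraries the neighbours in this order did not overlap either, although the lowest Car13 value (4.253 CPM per kb) was just above the highest Car12 value (4.246).

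The same order held in SpdefKO_EC, with Car1 at 1587 ± 182, Car4 at 851 ± 118 and Car2 at 348 ± 36.7 CPM per kb, followed by Car9, Car13, Car12 and Car8 at 35.6 ± 1.87, 22.7 ± 1.78, 9.58 ± 2.66 and 1.98 ± 0.530. Here Car1 and Car4 did not overlap. In SpdefKO_GC the order was that of WT_GC, with Car2 at 155 ± 17.6, Car1 at 85.4 ± 27.3 and Car4 at 35.1 ± 10.6 CPM per kb. Car9 (12.04 ± 1.23) and Car8 (11.1 ± 2.002) overlapped there, and Car13 (6.95 ± 0.968) and Car12 (3.52 ± 0.814) were lowest.

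The make-up of the family therefore differed between the sorted cells. The 16 genes summed to 3168 ± 64.5 CPM per kb in WT_EC and to 376 ± 24.3 in WT_GC. In WT_EC Car1 made up 43.0% ± 3.50 of this sum, Car4 41.6% ± 2.4 and Car2 13.3% ± 1.29. In WT_GC Car2 made up 68.5% ± 2.77, Car1 15.4% ± 1.74 and Car4 6.97% ± 2.17. With the length of all exons joined in place of the principal transcript, the WT_EC shares were 51.5% for Car1 and 33.7% for Car4, and the Car12 level in WT_EC was 4.88 CPM per kb. Car8 made up 0.0776% of the sum in WT_EC and 2.23% in WT_GC. These shares are a description with no test.

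**Figure D3:**
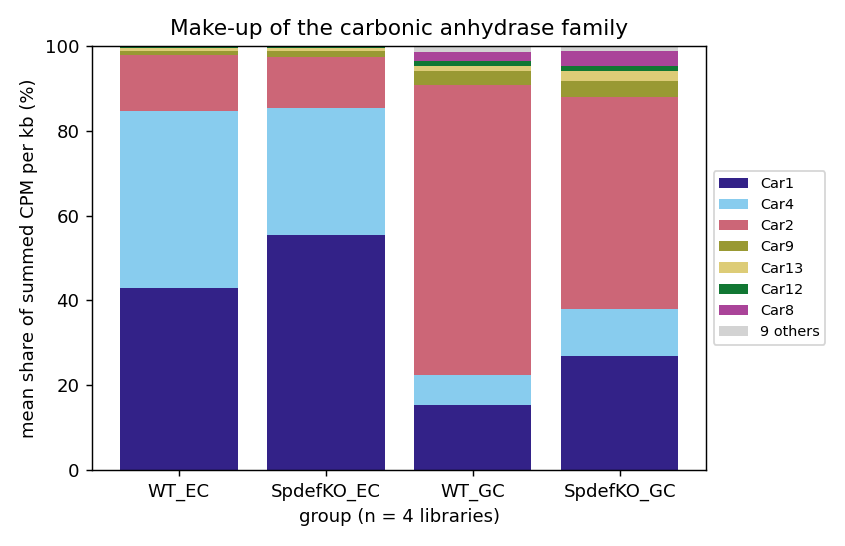
Share of each carbonic anhydrase in the summed CPM per kb of the 16 family genes (%), as the mean of 4 libraries per group. Car1 and Car4 fill most of the EC columns and Car2 the largest piece of the GC columns, 68.5% in WT and 49.9% in SpdefKO.

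Between genotypes in goblet cells, Car2 was lower and Car13 and Car1 were higher in SpdefKO_GC than in WT_GC. These 3 of the 6 genes passed the test, 1 as lower and 2 as higher, beside 21.4% of all genes tested (11% lower, 10.4% higher). Car4, Car8 and Car12 did not pass. The median log2 difference over the 6 genes was 0.40, and over all genes tested 0.0014.

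Car2 was at 456, 452, 454 and 475 CPM in WT_GC and at 265, 300.1, 239 and 306 CPM in SpdefKO_GC. All 4 SpdefKO_GC libraries were below all WT_GC libraries, a separation found in 25.1% of all genes tested. Car2 fell by 0.73 ± 0.09 on the log2 scale (adjusted p = 1.25e-05), and its call held under all 23 alternatives. Car13 was at 9.78, 12.7, 11.9 and 12.7 CPM in WT_GC and at 16.8, 12.7, 17.8 and 16.6 CPM in SpdefKO_GC. The groups did not overlap, but only just, with WT_GC 11 at 12.68 CPM and SpdefKO_GC 5 at 12.73 CPM. Car13 rose by a log2 value of 0.43 ± 0.11 (adjusted p = 0.00839), and its call held under all 23 alternatives.

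Car1 was at 71.0, 68.6, 53.8 and 79.9 CPM in WT_GC and at 108, 76.1, 75.9 and 144 CPM in SpdefKO_GC. The groups overlapped, and SpdefKO_GC 3 and 19 carried the higher mean. The call as higher (log2 0.56 ± 0.18, adjusted p = 0.0401) was lost under 8 of 23 alternatives, where adjusted p ran up to 0.129. Among these, it was lost without SpdefKO_GC 3 (0.0751), without SpdefKO_GC 19 (0.129), and without WT_GC 9 (0.0646), 11 (0.0729) or 13 (0.120). It was also lost with limma-voom (0.0563), without a filter on low counts (0.106) and with only the groups compared in the model (0.0944).

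Car4 was at 32.7, 21.6, 28.0 and 51.1 CPM in WT_GC and at 49.1, 32.0, 34.8 and 60.6 CPM in SpdefKO_GC, with overlapping groups (log2 0.41 ± 0.24, adjusted p = 0.246). Without WT_GC 18, the highest WT_GC library, it passed as higher (adjusted p = 0.0267). Car8 was at 27.1, 29.3, 31.4 and 41.8 CPM in WT_GC and at 42.4, 44.3, 51.6 and 32.9 CPM in SpdefKO_GC (log2 0.40 ± 0.16, adjusted p = 0.0915). Its groups overlapped through WT_GC 18 and SpdefKO_GC 19, and it passed as higher without either (adjusted p = 0.0232 and 0.0423) and with limma-voom (0.0443). Car12 was at 12.8, 15.8, 15.8 and 15.8 CPM in WT_GC and at 14.05, 11.03, 16.9 and 10.3 CPM in SpdefKO_GC (log2 -0.21 ± 0.18, adjusted p = 0.450), and passed under none of the 23 alternatives.

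Ratios within a library do not depend on how libraries are scaled, and are given here as a description. The ratio of Car2 to Car1 (per kb) was 4.24, 4.34, 5.57 and 3.92 in the WT_GC libraries and 1.62, 2.60, 2.07 and 1.404 in SpdefKO_GC. All SpdefKO_GC libraries were lower. Car2 made up 49.9% ± 5.20 of the family sum in SpdefKO_GC, Car1 26.9% ± 4.71 and Car4 11.1% ± 1.92, and the sum itself was 313 ± 46.2 CPM per kb. The ratio of Car13 to Car12 was 1.22–1.30 over WT_GC and 1.70–2.60 over SpdefKO_GC. The other ratios computed overlapped between genotypes. Car2 to Car4 was 6.52–14.7 over WT_GC and 3.54–6.59 over SpdefKO_GC, and Car1 to Car4 1.66–3.38 and 2.32–2.53. Car1 to Car13 was 8.79–14.2 over WT_GC and 8.31–16.9 over SpdefKO_GC.

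Some markers of other cells moved with the genotype in goblet cells. For comparison, 10.4% of all genes tested were higher in SpdefKO_GC than in WT_GC and 11% lower. Of 12 absorptive colonocyte markers tested, 5 were higher in SpdefKO_GC and 0 lower by edgeR. Their summed level was 1337–1717 CPM over the SpdefKO_GC libraries, overlapping with 1309–1563 CPM in WT_GC, and SpdefKO_GC 3 and 19, with the highest Car1 and Car4, also had the highest sums of their group (1603 and 1717 CPM). All 12 enteroendocrine markers were higher in SpdefKO_GC, with sums of 229–340 CPM against 93.6–134 CPM. Of 6 deep crypt secretory markers 2 were higher and 1 lower. Dll1 (log2 0.84 ± 0.09) and Mmp7 (log2 2.70 ± 0.27) were higher, and Reg4 was lower, with means of 939 CPM in SpdefKO_GC against 1703 CPM for WT_GC (log2 -0.87 ± 0.22, adjusted p = 0.0121). Of 4 immune markers tested 2 were higher, Itgam (log2 1.27 ± 0.22) and Csf1r (log2 1.70 ± 0.55). Ptprc did not pass, with means of 1.66 CPM in WT_GC and 1.55 CPM in SpdefKO_GC, and neither did Lyz2. The list summed to 6.51–8.49 CPM in SpdefKO_GC and 3.80–4.65 CPM in WT_GC, and Itgam alone averaged 4.52 and 1.85 CPM. Stromal and endothelial markers summed to 2.76–3.68 CPM against 1.52–2.10 CPM, and none of the 2 tested passed. Of 10 stem and proliferation markers 1 was higher, Mki67 (log2 0.80 ± 0.13), and 2 lower, Ascl2 and Slc12a2, and of 11 goblet cell markers 4 were higher and 2 lower. None of 6 tuft cell markers passed. Genes detected per library were 16553–17105 in WT_GC and 17221–18056 in SpdefKO_GC. The part of these shifts in the levels of Car1, Car2 and Car13 was not tested.

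In EC, none of the 6 genes passed the test between genotypes by edgeR, beside 12.6% of all genes tested (6.09% higher, 6.54% lower). At an unadjusted p under 0.05 there were 3 of 6, beside 28.1% of all genes tested, and DESeq2 called 0. The median log2 difference over the 6 genes was -0.12, and over all genes tested 0.0050. Car4 was at 1585, 1574, 1711 and 1749 CPM in WT_EC and at 1178, 885, 1201 and 1014 CPM in SpdefKO_EC. All SpdefKO_EC libraries were below all WT_EC libraries, as in 14.8% of all genes in either direction, yet Car4 did not pass (log2 -0.59 ± 0.22, adjusted p = 0.0940). With only the EC groups in the model the adjusted p of Car4 was 0.00523, and without WT_GC 18 it was 0.0367. Leaving out single libraries gave 0.0367–0.187.

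Car1 was at 1574, 1832, 1475 and 1548 CPM in WT_EC and at 1992, 1686, 1697 and 2115 CPM in SpdefKO_EC, with overlap (log2 0.26 ± 0.18, adjusted p = 0.362). Car2 was at 788, 664, 793 and 767 CPM in WT_EC and at 601, 611, 561 and 715 CPM in SpdefKO_EC, also with overlap (log2 -0.23 ± 0.09, adjusted p = 0.0906). Car13 was at 42.5, 48.1, 42.0 and 43.9 CPM in WT_EC and at 56.6, 46.7, 52.5 and 52.7 CPM in SpdefKO_EC (log2 0.28 ± 0.10, adjusted p = 0.0673). SpdefKO_EC 6 alone lay within the WT_EC range of Car13. Car8 and Car12 had adjusted p-values of 0.423 and 0.971, with SpdefKO_EC means of 7.63 ± 2.04 and 35.6 ± 9.88 CPM.

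The ratio of Car1 to Car4 (per kb), both abundant in EC, was 1.06, 1.24, 0.918 and 0.942 in the WT_EC libraries and 1.80, 2.03, 1.503 and 2.22 in SpdefKO_EC. The libraries did not overlap. Car2 to Car1 was only just apart (0.2392–0.355 over WT_EC and 0.199–0.2390 over SpdefKO_EC). The ratios of Car2 to Car4, Car13 to Car12 and Car1 to Car13 overlapped. Car1 made up 55.5% ± 2.85 of the family sum in SpdefKO_EC and Car4 29.8% ± 3.57. Of the 12 absorptive colonocyte markers tested, 4 were higher in SpdefKO_EC and 2 lower, beside 6.09% and 6.54% of all genes tested. Ceacam20 was lower (log2 -0.48 ± 0.13, adjusted p = 0.0201), and Krt20, a keratin of the surface epithelium, was higher (log2 0.72 ± 0.16, adjusted p = 0.00766). The 13 genes of the list summed to 8318–11850 CPM over the SpdefKO_EC libraries. Tuft cell markers were lower in 4 of 6 tested, with sums of 18.7–20.4 CPM in SpdefKO_EC and 50.5–88.5 CPM in WT_EC. Enteroendocrine markers were lower in 7 of 12, with sums of 242–402 CPM against 551–765 CPM. The part of these marker shifts in the ratio of Car1 to Car4 was not tested.

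**Figure D4:**
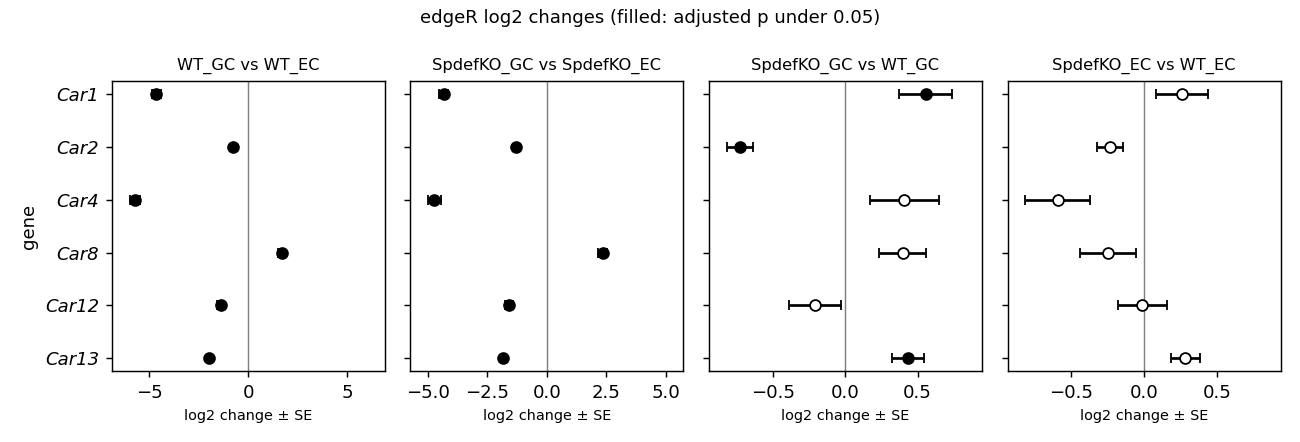
Log2 changes (± SE) of the 6 genes in the 4 group comparisons, each panel on its own scale; filled points passed at an adjusted p under 0.05. Car8 is the only point right of 0 in both panels of GC against EC, and none is filled in SpdefKO_EC vs WT_EC.

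Whether the genotype difference in GC departed from that in EC was tested as an interaction, which 9.53% of all genes passed (4.88% higher, 4.65% lower). Of the 6 genes, only Car2 passed, with a genotype difference that was lower in GC than in EC (log2 -0.50 ± 0.13, adjusted p = 0.0182). The Car2 interaction passed under all 23 alternatives, with adjusted p-values of 0.000145–0.0449. For Car4 the estimate was 1.00 ± 0.32 (adjusted p = 0.0686), and it passed with limma-voom (0.0394) and without WT_GC 18 (0.00792). For Car8 it was 0.65 ± 0.25 (adjusted p = 0.117), and it passed without SpdefKO_EC 8 (0.0442) or WT_GC 18 (0.0425). Car1, Car12 and Car13 had adjusted p-values of 0.523, 0.683 and 0.572. The comparisons of GC with EC and of the genotypes share libraries, so their values are not independent.

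The library numbers run in adjacent pairs of GC and EC from the same genotype, such as 9 and 10 or 3 and 4. The labels do not tie such pairs to a mouse, but the libraries deviated from their group means together. Over all genes tested the correlation of these deviations was 0.125–0.613 over the 8 pairs. Each GC library was compared with the 4 EC libraries of its own genotype only. In 8 of 8 it correlated best with the one of the adjacent number. This is a hint from the data and not part of the design. With these pairs as a block, an alternative added after seeing the data, 3 of the 6 genes passed the interaction and 3329 of all genes in place of 1231. The genotype difference was lower in GC for Car2 (log2 -0.50, adjusted p = 0.000145) and higher in GC for Car8 (log2 0.67, adjusted p = 0.000354) and, close to the threshold, for Car4 (log2 1.02, adjusted p = 0.0486). All 6 differences between GC and EC passed with the block in both genotypes.

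Of the other 10 family genes, 4 passed the filter on low counts. Car9, a transmembrane enzyme known from hypoxic and glandular epithelium, was at 60.5–72.1 CPM over WT_EC and 22.5–25.8 CPM over WT_GC, and was lower in GC (log2 -1.52 ± 0.08, adjusted p = 4.42e-12). Its means in GC were 24.1 CPM in WT and 24.4 CPM in SpdefKO (log2 0.01 ± 0.08, adjusted p = 0.947). Car15, a lipid-anchored enzyme, was at 4.75, 5.14, 4.84 and 3.65 CPM in WT_GC and at 2.68, 2.97, 3.87 and 1.74 CPM in SpdefKO_GC. It was higher in WT_GC than in WT_EC (log2 0.81 ± 0.22, adjusted p = 0.00346) and lower in SpdefKO_GC than in WT_GC (log2 -0.72 ± 0.22, adjusted p = 0.0225), with overlapping libraries. Car11, a member known as inactive, was at no more than 1.02 CPM in any library. It passed as lower in SpdefKO_EC than in WT_EC (adjusted p = 0.0406) and as higher in SpdefKO_GC than in SpdefKO_EC (adjusted p = 0.0117), on 0 to 3 counts per SpdefKO_EC library. Car5b, a mitochondrial enzyme, passed in none of these comparisons. Car3, inside the chromosome 3 cluster, was not tested, with group means of 0.247–0.552 CPM, while its neighbours Car1 and Car2 were at 1607 and 753 CPM in WT_EC. Car5a, Car6, Car7, Car10 and Car14 were also below the filter.

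The genes that carry bicarbonate, chloride and protons, which work with these enzymes, were read from fixed lists. Of 24 genes of bicarbonate and chloride transport, 14 were tested, and 9 were lower and 4 higher in WT_GC than in WT_EC. Beside these, 30.2% of all genes tested were lower and 31.0% higher. Slc26a3, the apical chloride/bicarbonate exchanger, averaged 2025 CPM in WT_EC and 56.7 CPM in WT_GC (log2 -5.24 ± 0.19, adjusted p = 1.37e-13), and Clcn2, a chloride channel, was lower too (log2 -3.20 ± 0.12). Best2, a bicarbonate-permeable channel of goblet cells, averaged 0.722 CPM in WT_EC and 266 CPM in WT_GC (log2 8.44 ± 0.23, adjusted p = 5.03e-15). Slc4a7, a sodium/bicarbonate cotransporter, was higher (log2 1.68 ± 0.09). The median log2 difference over this list was -0.82.

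Of 14 genes of proton and monocarboxylate transport, 11 were tested, and 9 were lower and 1 higher in WT_GC, with a median log2 difference of -1.58. The shares over all genes tested were again 30.2% lower and 31.0% higher. Slc9a3 and Slc9a2, apical sodium/proton exchangers, were lower (log2 -5.98 ± 0.20 and -4.12 ± 0.13). Slc9a3r2, a scaffold of Slc9a3, was higher (log2 4.76 ± 0.19, adjusted p = 7.97e-14). Of 7 genes of pH and bicarbonate sensing, 3 were tested, with a median of -0.14. Insrr, a receptor that responds to alkaline pH, was higher in WT_GC (log2 7.65 ± 0.41, adjusted p = 7.62e-12). Ptprg, a receptor phosphatase with an extracellular domain like a carbonic anhydrase, was lower (log2 -1.48 ± 0.08), as was Gucy2c, the guanylin receptor (log2 -0.14 ± 0.05, adjusted p = 0.0286).

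In SpdefKO_GC against WT_GC, 1 of 14 tested genes of the bicarbonate and chloride list was higher and 2 were lower. Of 11 tested genes of the proton list 3 were higher and 3 lower, and of 3 of the sensing list 0 and 2. The shares over all genes tested in this comparison were 10.4% higher and 11% lower. Slc26a3 was higher (log2 0.47 ± 0.16, adjusted p = 0.0452) and Slc26a11, an anion transporter, lower (log2 -0.46 ± 0.16, adjusted p = 0.0493). Slc9a3 rose from 4.11 to 14.2 CPM (log2 1.79 ± 0.21, adjusted p = 9.89e-06). Atp12a, a proton/potassium pump of the colon, was lower (log2 -1.46 ± 0.15). The same held for Slc9a3r2 (log2 -1.80 ± 0.14), Insrr (log2 -2.96 ± 0.25) and Gucy2c (log2 -0.35 ± 0.05, adjusted p = 0.00015). In EC, 2 genes of the bicarbonate list were higher and 1 lower, of the proton list 1 and 1, and of the sensing list 0 and 1. Over all genes tested there, 6.09% were higher and 6.54% lower.

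For each of the 6 genes, the 3 tested genes with the most similar course were sought by the root mean square distance between log2(CPM + 0.5) values centred over the 16 libraries, a description with no test. Since sorted cell type separates these libraries, the distance mostly reads the step between EC and GC. Nearest to Car1 were Gcnt2 (0.17), Tmigd1 (0.18) and Cyp4f14 (0.21), and nearest to Car4 were Prss30 (0.19), Slc34a2 (0.21) and Ceacam20 (0.23). Nearest to Car2 were Xpr1 (0.14), Cela1 (0.17) and Cx3cl1 (0.17). Car12 was nearest to Slc25a22 (0.13), Ermp1 (0.17) and Stk25 (0.19), and Car13 to Actn4 (0.16), Slc39a4 (0.16) and Aqp4 (0.16). Car8 was nearest to Sorcs2 (0.23), Cldn15 (0.24) and Prss53 (0.25). Within the family, Car13 and Car9 were the closest pair shown here (0.27), Car1 and Car4 were 0.53 apart, and Car4 and Car8 3.63.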

How the data were processed

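The deposited table used here holds raw counts, as whole numbers for each gene in each library. Tools listed in the submitters' processing notes are STAR 2.4.0f, HTSeq 0.6.1p1, FastQC 0.11.2 and DESeq2 1.14, with the build mm10 and no roles. No source used here states the annotation or strand setting of the counting. None of the 6 genes overlaps another gene of the table. Libraries were made with a stranded total RNA kit after removal of ribosomal RNA, per the labels' protocols. The other deposited table is a scaled signal, in which each library's counts were divided by a single factor (0.674–1.26). It gave these factors as an alternative scaling and 27 gene symbols that had turned into dates in the counts. Reads assigned to no gene, 47.1–54.7% of counts in 3 entries, were left out throughout. Each pair of libraries was checked by a chi-square test of counts, and none was a duplicate.

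Genes were tested with the quasi-likelihood test of edgeR 4.0.16 (limma 3.58.1, R 4.3.3), with TMM factors, the default filter by group and 1 coefficient per group over all 16 libraries. P-values were adjusted by Benjamini and Hochberg over 12915 genes, and an adjusted p under 0.05 counts as passed. Each SE, |log2 change|/√F, is approximate. The fit was tested on simulated counts. Alternatives were RLE, upper-quartile and the authors' size factors, DESeq2 1.42.0, limma-voom, no filter, only the groups compared, each library left out, and TMM-scaled levels. The length of all exons joined, and a block of adjacent library numbers, were added after seeing the data.

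Text names all 16 family genes, the markers that move with a result, the 3 nearest genes per member, and from each of the 3 transport and sensing lists up to 2 largest changes per direction among passing genes with at least 5 CPM in the higher group. Some genes and a sequence that these rules cover are not reported here. The members and the lists were chosen with earlier results of these data known. Positions and lengths come from GENCODE M21 (GRCm38, also called mm10). Zinc positions were found by alignment of the translated coding sequences.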

Additional observations from a re-analysis of the deposited data

Results flagged for a closer look

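The Car2 difference between genotypes was not the same in the sorted fractions. The test of that difference gave a log2 value of -0.50 (adjusted p = 0.0182), from a change of -0.73 in GC and of -0.23 in EC.

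Car12 in WT_GC had a library apart from the others of its group. WT_GC 9 was at 12.8 CPM, while the other libraries were at 15.76–15.78 CPM, so the gap took a share of 0.995 of the range of the group. Chance alone sets apart about 1 in 20 groups, and 24 groups were examined.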

How the results depend on the processing

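Over the 6 genes and 5 comparisons, 702 gene-by-alternative values were computed. Of these 677 kept their side of the threshold, 8 lost the call, 17 gained it and 0 reversed a call. In 22 of 30 gene results no call changed. The sign could differ where neither value passed, as for Car12 in SpdefKO_EC vs WT_EC (log2 -0.205 to 0.0975 over the alternatives). The 8 losses are those of Car1 in SpdefKO_GC vs WT_GC. Without WT_GC 18, 5 of the 6 genes passed in SpdefKO_GC vs WT_GC in place of 3, and leaving out single libraries gave 2–5. Calls over all genes there were 2764, and 2033–3057 with single libraries left out. In SpdefKO_EC vs WT_EC, 1 gene passed in place of 0 with upper-quartile factors (Car2), limma-voom (Car13) or only the groups compared (Car4), and 0–1 with single libraries left out. Over all genes, that comparison called 1631, 1075 with only the groups compared, and 940–2253 with single libraries left out, the lowest without SpdefKO_EC 4 and 1006 without WT_EC 17. In the interaction 2 of the 6 genes passed with limma-voom in place of 1, and 1–3 with single libraries left out (3 without WT_GC 18, 2 without SpdefKO_EC 8). Calls over all genes in the interaction were 1203 with limma-voom in place of 1231, and 857–1511 with single libraries left out. The causes were not tested. Upper-quartile factors moved the median of all genes in SpdefKO_GC vs SpdefKO_EC by 0.11 on the log2 scale and the share of calls that were higher from 49.7% to 60.9%, and in SpdefKO_EC vs WT_EC from 48.3% to 33.1%. With TMM-scaled library sizes 23 of 24 group levels moved by less than their SD, and Car2 in WT_GC was at 444 in place of 459 CPM. No library numbers are shared between groups. With adjacent numbers as a replicate block, 3 of the 6 genes (Car2, Car4 and Car8) and 3329 of all genes passed the interaction, in place of 1 and 1231, and no call between GC and EC changed for the 6 genes. Differences between genotypes cannot be tested within such pairs. Precision is limited by 4 libraries per group. For Car11, at a few counts per library, it is limited by depth.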
